A study of Homo sapiens with 4 samples.

Results

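The miRNAs described here are encoded inside the human HOX gene clusters: miR-10a and miR-10b, miR-196a and miR-196b, and miR-615. They were chosen by name and genomic location, with earlier results of these data known. The 8 members, of the 1882 mature miRNA names that all 4 libraries list, are hsa-miR-10a-5p, hsa-miR-10a-3p, hsa-miR-10b-5p, hsa-miR-10b-3p, hsa-miR-196a-5p, hsa-miR-196b-5p, hsa-miR-196b-3p and hsa-miR-615-3p. miR-196a-3p and miR-615-5p are also encoded in these clusters and listed in all 4 libraries. They are not among the 8 and are given beside them. Small RNA was sequenced from HT29 and HCT15, which are established lines of human colorectal adenocarcinoma. Spheres of both lines were grown in DMEM-F12, to which N2 Plus, bFGF at 10 ng/ml and EGF at 10 ng/ml were added. Parental cells were grown with 10% FBS in DMEM for HT29 and in RPMI for HCT15. The submitters describe the spheres as sphere-derived cancer stem cells. All 4 media held penicillin-streptomycin, and the labels name no engineered change in any group. Each line and culture had 1 library, so no value below has a replicate. The labels list FBS for the parental media only. Growth as spheres and the change of medium came together and cannot be told apart.

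HOX genes encode transcription factors that give cells their position along the body axis, and each of the human clusters lies on its own chromosome, with its genes in the order of their domains along that axis. The miRNAs within the clusters are transcribed with or beside the HOX genes and repress messenger RNAs through a seed at their 5′ end. miR-10 hairpins lie beside HOX4 genes and miR-196 hairpins beside HOX9 genes, on the HOX10 side. In mouse embryos miR-196 directs cleavage of Hoxb8 mRNA, and in human breast cancer cells miR-10b represses HOXD10.

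The mature strands are shown because the seed, bases 2 to 8 and in capitals, sets which messenger RNAs a strand can pair with and which members form a family. A mature sequence was found for 7 of the 8 members in RefSeq (GRCh38.p14), and they are written 5′ to 3′.
miR-10a-5p: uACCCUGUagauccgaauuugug
miR-10a-3p: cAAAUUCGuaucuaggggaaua
miR-10b-3p: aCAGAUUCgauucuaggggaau
miR-196a-5p: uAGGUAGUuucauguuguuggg
miR-196b-5p: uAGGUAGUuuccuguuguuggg
miR-196b-3p: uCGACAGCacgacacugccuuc
miR-615-3p: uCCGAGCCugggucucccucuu

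miR-196a-5p and miR-196b-5p share their seed and are identical at 21 of 22 bases, with A12C as the difference from miR-196a-5p to miR-196b-5p, counted from 1 at the 5′ end. miR-10a-5p and miR-10b-5p are likewise near-identical paralogs. For such pairs, reads can be assigned to either name, so ratios of the pair sums are given beside those of the single names. The seeds of miR-10a-3p and miR-10b-3p above differ.

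The 8 strands come from 6 hairpins in the 4 clusters (positions from GENCODE 29, GRCh38). MIR10A (chr17:48579838-48579947, minus strand) lies in the HOXB cluster, within an exon of an annotated HOXB4 transcript and an intron of HOXB3. MIR10B (chr2:176150303-176150412, plus strand) lies in an intron of HOXD3 in the HOXD cluster, 810 bases upstream of HOXD4. miR-196a-5p has 2 sources with the same mature sequence. MIR196A1 (chr17:48632490-48632559, minus strand) lies in an intron of HOXB7, 6134 bases upstream of HOXB9. MIR196A2 (chr12:53991738-53991847, plus strand) lies in an intron of HOXC6, between HOXC10 and HOXC9. MIR196B (chr7:27169480-27169563, minus strand) lies in an exon of an annotated HOXA9 transcript, 1028 bases from HOXA10. MIR615 (chr12:54033950-54034045, plus strand) is intronic to HOXC5 and to HOXC4.

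**Figure D1:**
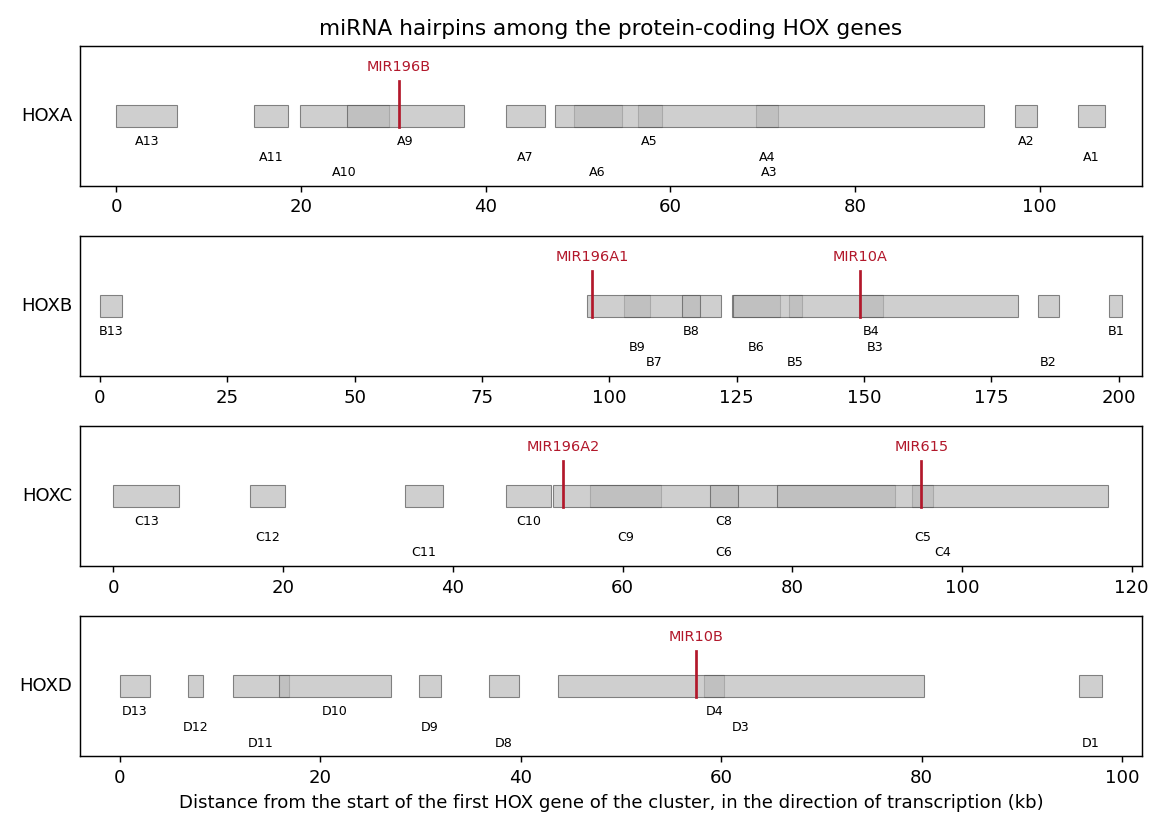
The 6 miRNA hairpins (red) among the protein-coding HOX genes (grey boxes, labelled by paralog number) of the 4 clusters. The x axis is the distance in kb from the start of the first HOX gene of each cluster, in the direction of transcription. The miR-10 hairpins stand at the HOX4 genes, and the miR-196 hairpins lie within HOXA9 or just upstream of HOXB9 and HOXC9.

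The MIR196A1 and MIR196A2 hairpins are shown to make clear what a read can tell about its source; the 5p and 3p mature strands are in capitals (RefSeq, GRCh38.p14).
MIR196A1: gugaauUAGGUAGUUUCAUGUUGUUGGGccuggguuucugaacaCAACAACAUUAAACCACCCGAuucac
MIR196A2: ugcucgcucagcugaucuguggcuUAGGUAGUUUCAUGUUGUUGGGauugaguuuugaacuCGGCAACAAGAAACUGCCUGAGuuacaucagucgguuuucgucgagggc

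The miR-196a-5p sequence is found in both hairpins, and the miR-196a-3p sequence only in the HOXC hairpin MIR196A2 of these 2. The 3p strand of MIR196A1 was not analysed here.

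Levels below are CPM, reads of a name per 1000000 listed miRNA reads of the library. Libraries held 12794274 reads in HT29 spheres, 5806540 in HT29 parental cells, and about 2325418 and 3189984 in HCT15 spheres and parental cells. The HT29 values were deposited as counts and the HCT15 values as RPKM, from which reads were inferred, so a level set across the lines compares tables that were normalized separately. Intervals are 95% intervals for counting error only, since each line and culture had 1 library. Reads carry no molecular identifiers, so amplified copies count as separate reads and the intervals may be too narrow. A count of 0 allowed up to 3 reads, which is 0.234 CPM in HT29 spheres, 0.517 in HT29 parental cells, 1.29 in HCT15 spheres and 0.940 in HCT15 parental cells. As a check of the labelled cell type, the 5 epithelial markers of the miR-200 family were read in every library, at a summed 11611 to 56462 CPM. The intestinal epithelial markers miR-192, miR-194, miR-215 and miR-375 summed to 10805 to 186323 CPM. The 4 stromal markers summed to 6.72 to 20.4 CPM, with miR-214-3p at 0 in every library.

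The 5p strands of miR-10 were the most abundant HOX-locus miRNAs in every library. miR-10a-5p, from HOXB, was at 15075 CPM in HT29 spheres and 23567 CPM in HT29 parental cells. In HCT15 it was at 112950 CPM in spheres and 86848 CPM in parental cells, the second most abundant name in both libraries. miR-10b-5p, named for the HOXD hairpin, was at 13648 and 20603 CPM in HT29 spheres and parental cells, and at 95690 and 77843 CPM in those of HCT15. As these names are near-identical in sequence, their single levels are uncertain apart from their sum and do not give the output of each locus. The HCT15 libraries thus stood above the HT29 libraries for both names in either culture. In HT29 miR-10a-5p ranked 14th in spheres and 6th in parental cells.

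The 8 members together took 3.004% of the reads in HT29 spheres (exact Clopper-Pearson interval 2.99 to 3.01) and 4.91% in HT29 parental cells (4.89 to 4.92). In HCT15 they took 20.9% in spheres (20.86 to 20.97) and 16.5% in parental cells (16.5 to 16.6). Nearly all of this was the miR-10 5p pair, at 2.87% and 4.42% in HT29 spheres and parental cells and 20.9% and 16.5% in those of HCT15.

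The miR-196 5p strands showed the other order of the lines. miR-196a-5p, from HOXB and HOXC, was at 766 CPM in HT29 spheres and 2977 CPM in HT29 parental cells, against 185 and 241 CPM in HCT15 spheres and parental cells. miR-196b-5p, from HOXA and known for its high level in leukaemias with MLL rearrangements, was at 426 and 1587 CPM in HT29 spheres and parental cells, against 94.3 and 133 CPM in those of HCT15. Both HT29 libraries were above both HCT15 libraries for each name, and HT29 parental cells stood highest. The split of reads between these near-identical names is uncertain, as for miR-10.

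miR-615-3p, from HOXC, was at 26.0 CPM in HT29 spheres (interval 23.3 to 28.98) and 147 CPM in HT29 parental cells (137 to 157). In HCT15 it was at 42.6 CPM in spheres (34.6 to 51.8) and 49.8 CPM in parental cells (42.4 to 58.2). The intervals of the HCT15 cultures overlap, whereas HT29 parental cells were above the other 3 libraries and HT29 spheres below them.

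The remaining strands are the scarcer arms. miR-10a-3p was at 97.9 CPM in HT29 spheres, 184 in HT29 parental cells, 184 in HCT15 spheres and 195.9 in HCT15 parental cells. Its level was therefore close in the last 3 libraries, although that of miR-10a-5p from the same hairpin was not. miR-10b-3p had 2 reads in HT29 spheres and 0 in HT29 parental cells, against 12 and 36 reads in HCT15 spheres and parental cells. miR-196b-3p had 9 and 22 reads in HT29 spheres and parental cells, and 0 and 1 in those of HCT15.

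Ordered by level, miR-10a-5p led miR-10b-5p and then miR-196a-5p and miR-196b-5p in HT29. In HCT15 the intervals of miR-196a-5p and miR-10a-3p overlapped in spheres (168 to 204 against 167 to 203 CPM), so these neighbours did not differ beyond counting error. The 7 mature sequences above are 22 or 23 bases long, and reads were compared between strands without a length term.

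**Figure D2:**
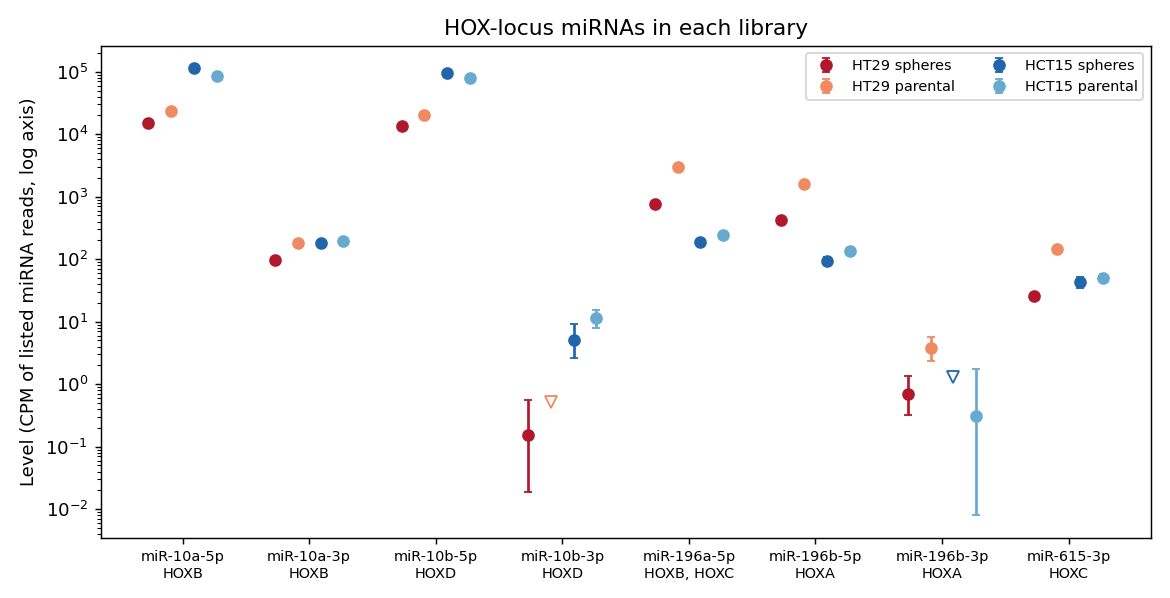
Level of each of the 8 strands in each library (CPM, log axis), with 95% counting intervals; each point is 1 library, and HOX clusters are named below the strands. Open triangles mark strands with 0 reads, drawn at the 3-read limit of that library. The miR-10 5p strands are higher in HCT15 and the miR-196 5p strands higher in HT29. Levels within each 5p pair are uncertain apart from the pair sum.

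Spheres were set against parental cells within each line, as a log2 ratio after TMM scaling with a prior count of 2 reads. With 1 library each, culture cannot be told apart from differences between single library preparations. In HT29 the miR-196 strands and miR-615-3p were lower in spheres, and the miR-10 5p strands had ratios near 0. miR-196a-5p had a ratio of -1.37 (interval -1.41 to -1.34), 2.59-fold lower in spheres. miR-196b-5p had -1.31 (-1.36 to -1.27), and miR-615-3p had -1.90 (-2.10 to -1.73), 3.74-fold lower. The scarce miR-196b-3p had -1.51, with a wide interval of -3.15 to -0.67. miR-10a-5p stood at -0.062 and miR-10b-5p at -0.011, and miR-10a-3p at -0.33 (-0.45 to -0.21).

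Of the 8 members, 6 reached a mean of 50 CPM in HT29, and in spheres 3 of these 6 were lower by 2-fold or more and 0 were higher by as much. These 3 include the near-identical miR-196a-5p and miR-196b-5p, whose reads are uncertain apart from their sum, so they are not separate observations. miR-196a-3p, which is not among the members, was lower by less than 2-fold (-0.92). The background was 44 lower (19.9%) and 28 higher (12.7%) of all 221 miRNAs at that level. That split turned with the scaling, to 33 lower and 37 higher with the upper quartile and 36 lower and 37 higher with TMM on HT29 alone, and widened to 73 lower and 11 higher with total reads and 54 lower and 17 higher without the 10 most abundant miRNAs. The members' median was -0.82, against 0.01 for all 221. With scaling by the total of listed reads these medians were -1.40 and -0.57, so a shift of all miRNAs goes with the choice of scaling. The members' median of -0.82 lies between the miR-10 strands (-0.33 to -0.011) and the 3 lower members (-1.90 to -1.31). It describes no single member and counts both near-identical 5p pairs by single names. Over 6 scalings miR-196a-5p ranged from -1.957 to -1.15, miR-196b-5p from -1.90 to -1.09 and miR-615-3p from -2.48 to -1.68, so each stayed more than 2-fold lower. The sum of the miR-196 5p pair had a ratio of -1.35 (interval -1.38 to -1.32), with a range of -1.94 to -1.13 over the scalings. Over the same scalings miR-10a-5p ranged from -0.64 to 0.16 and miR-10b-5p from -0.59 to 0.21, which gives them no fixed direction in HT29. The sum of the miR-10 5p pair was at -0.038, with a range of -0.62 to 0.19.

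In HCT15 the miR-10 5p strands were the members with the higher ratios. miR-10a-5p had 0.73 (interval 0.72 to 0.74), 1.66-fold higher in spheres, and miR-10b-5p 0.65 (0.64 to 0.66). Over the scalings they ranged from 0.38 to 0.99 and from 0.30 to 0.91, positive in each and under 2-fold in each. The sum of the miR-10 5p pair had 0.69 (0.69 to 0.70), with a range of 0.34 to 0.95. miR-196a-5p stood at -0.03 (-0.20 to 0.14), miR-196b-5p at -0.15 (-0.39 to 0.09) and miR-615-3p at 0.12 (-0.25 to 0.50). The intervals of these 3 strands include 0, so a difference between the cultures was not detectable at this depth, and their signs changed with the scaling. miR-10a-3p had 0.26 (0.08 to 0.44), also with a sign that changed. The sum of the miR-196 5p pair had -0.069 (-0.21 to 0.070), with a range of -0.42 to 0.19.

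Of the members, 5 reached a mean of 50 CPM in HCT15, and 0 of these 5 differed by 2-fold or more. The background was 8 higher (4%) and 4 lower (2%) of all 200 miRNAs at that level, a split that turned to 5 higher and 20 lower with total reads and 5 higher and 10 lower without the 10 most abundant miRNAs, and was 15 higher and 1 lower with the upper quartile and 12 higher and 2 lower with DESeq2 size factors. The members' median was 0.26, the value of miR-10a-3p, against 0.09 for all 200. With totals it was -0.09 against -0.27.

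**Figure D3:**
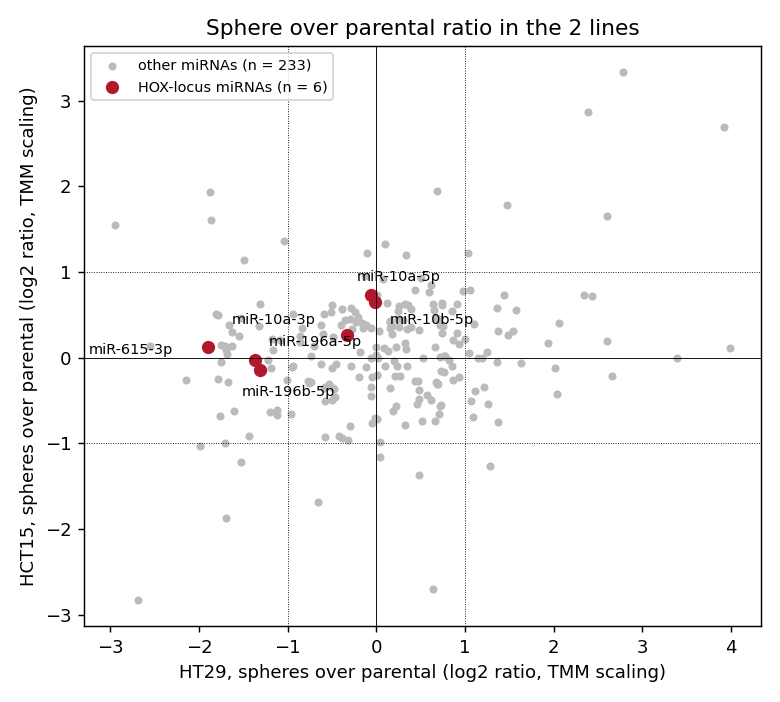
Sphere over parental log2 ratio in HT29 (x axis) and HCT15 (y axis) for the 239 miRNAs that averaged 50 CPM or more in the 4 libraries, 6 of them HOX-locus members (red). Dotted lines mark 2-fold. miR-196a-5p, miR-196b-5p and miR-615-3p lie beyond 2-fold lower in HT29 and near 0 in HCT15, and miR-10a-5p and miR-10b-5p near 0 in HT29 and above 0 in HCT15.

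**Figure D4:**
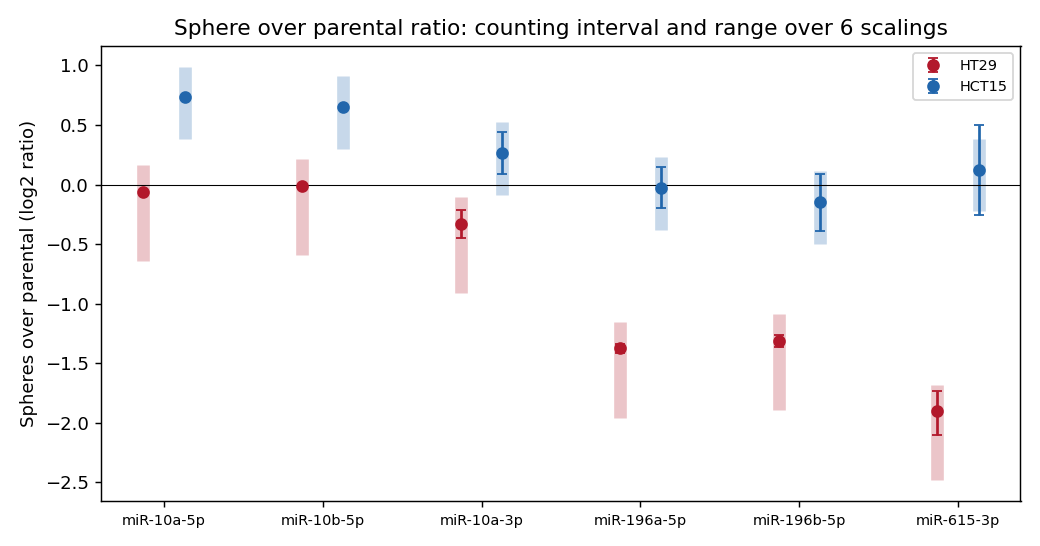
Sphere over parental log2 ratio of 6 strands in HT29 (red) and HCT15 (blue). Points are TMM-scaled ratios, error bars 95% counting intervals and shaded bars the range over 6 scalings. The bars of miR-196a-5p, miR-196b-5p and miR-615-3p stay below -1 in HT29.

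A ratio of strands within a library does not depend on the scaling between libraries. The miR-196 5p pair made up 3.99% of the reads of the miR-196 and miR-10 5p pairs together in HT29 spheres (interval 3.92 to 4.05) and 9.37% in HT29 parental cells (9.26 to 9.47). In HCT15 it made up 0.134% in spheres (0.124 to 0.144) and 0.227% in parental cells (0.214 to 0.240). The miR-196 to miR-10 ratio was therefore 2.49-fold lower in spheres of HT29 (log2 -1.32, interval -1.35 to -1.29) and 1.70-fold lower in spheres of HCT15 (-0.76, -0.90 to -0.62). This ratio was chosen after the levels had been seen, and with 1 library per culture it has no replicate check. After TMM scaling, the pair that moved differed between the lines. In HT29 the miR-196 5p pair was at -1.35 and the miR-10 5p pair at -0.038. In HCT15 the miR-10 5p pair was at 0.69 and the miR-196 5p pair at -0.069 (-0.21 to 0.070).

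Across both lines, with the lines as the only replicates, spheres were tested against parental cells by limma, blocked on cell line, on the log2 of TMM-scaled CPM + 1. No member passed: 0 of the 377 miRNAs tested (0%) had a p under 0.05 after Benjamini-Hochberg adjustment, and 21 had one before it. The quasi-likelihood test of edgeR, run on reads, gave 0 and 21 as well. Of the 8 members 6 passed the filter on low values. The log2 fold changes were -0.70 (SE 0.53) for miR-196a-5p, -0.73 (SE 0.51) for miR-196b-5p and -0.88 (SE 0.65) for miR-615-3p. They were 0.33 (SE 0.29) for miR-10a-5p and 0.32 (SE 0.27) for miR-10b-5p. The limma adjusted p was 0.760 for each of these 5 strands. miR-10a-3p, at -0.03 (SE 0.45), had a limma adjusted p of 0.987. The labels mention no repeated culture of either line, so these p-values rest on how far the sphere over parental change differed between the lines. That spread was moderated across the miRNAs tested.

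The lines were also set side by side, HT29 over HCT15, with no test. The files of the lines were made in different units and the parental media differ, so line, medium and processing cannot be told apart. The miR-10 5p pair was lower in HT29, by 7.54-fold in spheres (log2 -2.92) and 4.54-fold in parental cells (-2.18). Over the scalings these differences ranged from -3.15 to -2.86 in spheres and from -2.38 to -1.90 in parental cells. The miR-196 5p pair was higher in HT29, by 4.11-fold in spheres (log2 2.04, interval 1.93 to 2.15) and 10.0-fold in parental cells (3.32, 3.24 to 3.41). Its ranges over the scalings were 1.81 to 2.09 in spheres and 3.12 to 3.61 in parental cells.

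miR-615-3p took opposite sides in the cultures: it was 1.69-fold lower in HT29 for spheres (log2 -0.76, interval -1.09 to -0.43) and 2.41-fold higher in HT29 for parental cells (1.27, 1.03 to 1.53). Both signs held over the scalings. miR-10a-3p was lower in HT29 by less than its 5p partner, at -0.97 (-1.13 to -0.81) in spheres and -0.37 (-0.52 to -0.23) in parental cells.

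Such differences were common between these lines. Of the 239 miRNAs that averaged 50 CPM or more, HT29 spheres had 103 (43.1%) higher by 2-fold or more and 79 (33.1%) lower by as much. Of the 6 members at that level 2 were higher and 2 lower there. These were the miR-196 and the miR-10 5p pairs, each made of near-identical names. In parental cells 106 of the 239 (44.4%) were higher in HT29 by that margin and 79 (33.1%) lower, and of the 6 members 3 were higher and 2 lower. A margin of 10-fold or more was reached by 38 higher (15.9%) and 35 lower (14.6%) in HT29 spheres, with 0 members among them. In HT29 parental cells it was reached by 45 higher (18.8%) and 35 lower (14.6%), with 1 member among the higher, miR-196a-5p at 10.1-fold. That member lies at the margin: its log2 ratio was 3.34 with an interval of 3.24 to 3.45, and 3.14 with upper quartile scaling, which is under 10-fold. With total reads (3.63 and 3.57) and with DESeq2 size factors (3.54 and 3.48) both this strand and miR-196b-5p passed 10-fold.

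The arms of the hairpins were read next. In miR-10a the 3p arm made up 0.645% of the reads of both arms in HT29 spheres (interval 0.610 to 0.682) and 0.776% in HT29 parental cells (0.730 to 0.824). In HCT15 it was 0.163% in spheres (0.148 to 0.179) and 0.225% in parental cells (0.208 to 0.243). The 3p share was thus lower in spheres in both lines, and lower in HCT15 than in HT29 for either culture, in each case beyond counting error. Its size is uncertain, since miR-10a-5p reads are uncertain apart from the pair sum. With miR-10a and miR-10b summed on both arms, the 3p share was 0.340% and 0.415% in HT29 spheres and parental cells. It was 0.0908% and 0.126% in those of HCT15, with the same directions. Relative to miR-10a-5p, miR-10a-3p was 1.20-fold lower in spheres of HT29 (log2 -0.27, interval -0.39 to -0.15) and 1.38-fold lower in spheres of HCT15 (-0.47, -0.64 to -0.29).

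For miR-196a, the 3p name comes from MIR196A2 alone, whereas the 5p name comes from MIR196A1 and MIR196A2. The 3p share is therefore not that of 1 hairpin and cannot be ranked against that of miR-10a. miR-196a-3p made up 4.27% of the reads of both names in HT29 spheres (3.88 to 4.68) and 3.16% in HT29 parental cells (2.91 to 3.43), and rested on 14 reads in each HCT15 library. miR-196a-3p, found here only in the HOXC hairpin, was at 34.2 and 97.1 CPM in HT29 spheres and parental cells, with a sphere over parental ratio of -0.92 (-1.11 to -0.74). Its ratio was negative over all 6 scalings, from -1.499 to -0.70.

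miR-615 was the hairpin in which the 3p arm was the main strand. The 3p arm made up 97.1% of both arms in HT29 spheres (94.7 to 98.6) and 99.2% in HT29 parental cells (98.3 to 99.7). In HCT15 it made up 84.6% in spheres (76.8 to 90.6) and 74.0% in parental cells (67.5 to 79.7). miR-615-5p, the other arm, had 10 and 7 reads in HT29 spheres and parental cells against 18 and 56 in the smaller HCT15 libraries. The arm shares of the lines did not overlap within counting error.

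The paralog shares differed between the 5p and the 3p arms. On the 5p arm, miR-10a-5p made up 52.5%, 53.4%, 54.1% and 52.7% of the miR-10 pair in HT29 spheres, HT29 parental cells, HCT15 spheres and HCT15 parental cells. That is close to the 50% of hairpins that carry its name, and all 4 intervals lie above 50%. miR-196a-5p made up 64.3%, 65.2%, 66.3% and 64.4% of the miR-196 pair in the same order, against the 66.7% of hairpins that carry its name. The HCT15 intervals (62.5 to 69.9 in spheres, 61.6 to 67.1 in parental cells) include 66.7%, and the HT29 intervals (63.5 to 65.0 and 64.6 to 65.8) lie below it.

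On the 3p arms, whose sequences differ, 1 paralog held nearly all the reads. miR-10a-3p made up 99.8% of the miR-10 3p pair in HT29 spheres, all of it in HT29 parental cells, 97.3% in HCT15 spheres and 94.6% in HCT15 parental cells. miR-196a-3p made up 98.0% and 96.2% of the miR-196 3p pair in HT29 spheres and parental cells. In HCT15 that pair had 14 reads in spheres and 15 in parental cells, of which 1 was miR-196b-3p.

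Some HCT15 values are not whole numbers of reads. In HCT15 parental cells miR-196a-5p and miR-196b-5p corresponded to 768.67 and 425.33 reads, with a sum of 1194. In HCT15 spheres they corresponded to 430.67 and 219.33 reads, with a sum of 650. The 3p strands of miR-10a, miR-10b, miR-196a and miR-615 all came out whole, at 625, 36, 14 and 159 reads in HCT15 parental cells. The miR-196 5p pair has 3 hairpins in all. How reads that fit several hairpins were assigned is not given in the sources used here. Its part in the 5p paralog shares was not tested, and the levels of miR-10a-5p and miR-10b-5p, and of miR-196a-5p and miR-196b-5p, are uncertain apart from their sums.

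**Figure D5:**
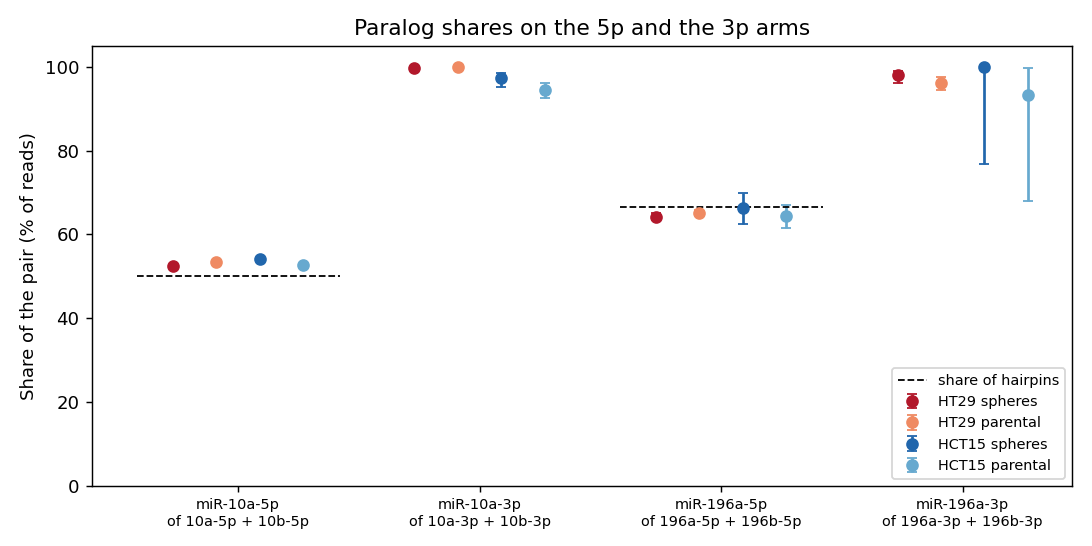
Share of the a-paralog in each pair (% of reads of the pair) in each library, with exact 95% intervals for counting error. Dashed lines mark the share of hairpins that carry the a-name on the 5p arm. The 5p shares lie within 5 percentage points of these lines in all 4 libraries, and the 3p shares lie at 93.3% or above.

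The miRNAs of the wider miR-10 family, miR-99a, miR-99b and miR-100, lie outside the HOX clusters. miR-99a-5p was at 37.8 and 19.98 CPM in HT29 spheres and parental cells (log2 ratio 1.48, interval 1.21 to 1.81) and at 529.8 and 564 CPM in those of HCT15 (0.26, 0.15 to 0.37). miR-100-5p had ratios of 1.38 in HT29 and 0.31 in HCT15, and miR-99b-5p 0.87 and -0.26. In HCT15 the signs of miR-99a-5p and miR-100-5p changed with the scaling. None of the 3 passed in limma across lines, with adjusted p of 0.760 for miR-99a-5p and miR-100-5p and 0.826 for miR-99b-5p. miR-99a-5p and miR-100-5p shared with miR-10 the higher level in HCT15, whereas miR-99b-5p was higher in HT29, by 1.36 in spheres and 0.24 in parental cells on the log2 scale.

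Within 1 Mb of the HOX-locus hairpins lie 12 other miRNA hairpins of the RefSeq table, 7 of them with a name in all 4 files and 3 of them with a name at a mean of at least 50 CPM. MIR148B, 303 kb from MIR615, had a miR-148b-3p ratio of 1.44 in HT29 (interval 1.41 to 1.47) and 0.74 in HCT15. MIR152, 543 kb from MIR10A, had a ratio of 2.06 in HT29 (1.97 to 2.15) and 0.41 in HCT15. Both are members of the miR-148 family, and both had positive ratios over all scalings in both lines. miR-1246, 451 kb from MIR10B, had 3.99 in HT29 and 0.12 in HCT15, the second with a sign that changed. In human cells, reads of the spliceosomal RNA U2 can be counted under this name. In HT29 miR-148b-3p thus had a positive ratio where miR-615-3p, from the nearest HOX-locus hairpin, had a negative one (-1.90). The HOX-locus hairpins nearest to MIR152 and miR-1246 were those of miR-10. Their strands miR-10a-5p and miR-10b-5p stood near 0 in HT29 (-0.062 and -0.011).

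The miRNAs with the most similar profiles were found by the Euclidean distance between centred log2 levels over the 4 libraries, among 233 other miRNAs. For miR-10a-5p and miR-10b-5p the nearest was let-7a-3p, at distances of 0.053 and 0.056 on the log2 scale, followed by miR-125a-5p and miR-4286. let-7a-3p was at 36.7 and 54.8 CPM in HT29 spheres and parental cells and at 269 and 207 CPM in those of HCT15. For miR-196a-5p and miR-196b-5p it was miR-335-5p, at distances of 0.34 and 0.32. Next came miR-33b-3p and miR-151b for miR-196a-5p, and miR-151b and miR-590-3p for miR-196b-5p. For miR-615-3p the nearest were miR-7-1-3p (0.37), miR-339-5p (0.51) and miR-331-3p (0.52). With 4 libraries of 2 lines, such a distance describes these libraries alone.

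Some marker miRNAs of other cell types differed between the HT29 cultures beside these results. The 3 muscle markers summed to 1159 CPM in HT29 spheres and 166 CPM in HT29 parental cells, nearly all miR-1, and were at 0 in both HCT15 libraries. The 3 neural markers summed to 285 and 1253 CPM in HT29 spheres and parental cells, mostly miR-128, while miR-124-3p had reads in HT29 parental cells alone. In HCT15 the neural markers summed to 321 and 610 CPM in spheres and parental cells. The 5 blood-cell markers summed to 378 and 405 CPM in HT29 and 36.6 and 45.8 CPM in HCT15, with miR-223-3p at 0 in every library. miR-126-3p of endothelium was at 147 and 132 CPM in HT29 and 8.60 and 12.2 CPM in HCT15, and miR-122-5p of liver did not exceed 0.625 CPM. Their part in the HOX-locus differences was not tested. In bulk RNA, fewer cells that express a strand and less of it per cell cannot be told apart.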

How the data were processed

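Per the labels' protocols, a TruSeq Small RNA kit and 1 ug of total RNA made each library. Per the file headers, the authors deposited read counts for HT29 and RPKM for HCT15, by mature name of miRBase release 19. The submitters' processing notes name hg19. Aligner, trimming and the treatment of multiply matching reads: not given in the sources used here. No coordinates were taken from hg19.

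The value of 1 read in HCT15 was taken from the steps between low RPKM values of 22-base miRNAs: 0.263 in spheres and 0.162 in parental cells. Within 0.02 reads, 75.0% of 148 and 72.1% of 269 such values were whole. At 23 bases the step was 101% of this, a difference left uncorrected. The commonest HCT15 sphere value was read as 2 reads, which leaves 3 names at 1 read (117 in HCT15 parental cells). Why so few names are at 1 read in HCT15 spheres was not tested. A count of 0 there, as for miR-196b-3p, is therefore not directly comparable with 1 read in HCT15 parental cells. Had that commonest value been 1 read, the sphere reads would be fewer and their counting intervals wider.

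Ratios used edgeR 4.0.16 TMM factors over names in all 4 files and a prior count of 2. Intervals are exact binomial, or normal on the log scale for ratios of ratios. limma 3.58.1 (R 4.3.3) with a mean-variance trend kept miRNAs that reached 10 CPM in 2 or more libraries, with a pseudocount of 1 CPM and 1 residual degree of freedom, with a threshold of 0.05 after Benjamini-Hochberg adjustment. The limma fit was also run on simulated counts whose changes were alike in both lines. That run was required only to recover the size of the fold changes and does not bear on the p-values given here. edgeR, DESeq2 1.42.0 and limma-voom on rounded reads were alternatives. The remaining steps ran in Python 3.11.15 (scipy 1.17.1, pandas 2.3.3, numpy 2.4.6). The text names the 8 members, their other arms, the miR-99/100 relatives, neighbours within 1 Mb and the 3 nearest profiles of each of 5 main arms. Members and lists were chosen with earlier results of these data known.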

Additional observations from a re-analysis of the deposited data

Results flagged for a closer look

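The sphere over parental ratio had opposite signs in HT29 and HCT15, with counting intervals that exclude 0, for 3 members. miR-10a-5p had log2 ratios of -0.062 in HT29 and 0.73 in HCT15. miR-10b-5p had -0.011 in HT29 and 0.65 in HCT15. miR-10a-3p had -0.33 in HT29 and 0.26 in HCT15. The difference between the lines was not tested, since each line has 1 library per culture. The HT29 signs of miR-10a-5p and miR-10b-5p and the HCT15 sign of miR-10a-3p changed with the scaling.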

How the results depend on the processing

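The 5 main arms were miR-10a-5p, miR-10b-5p, miR-196a-5p, miR-196b-5p and miR-615-3p, so both near-identical 5p pairs are counted by single names. Their median log2 ratio in HT29 was -1.31, which is the value of miR-196b-5p. It does not describe miR-10a-5p and miR-10b-5p, at -0.062 and -0.011. This median moved to -1.90 with total reads and -1.59 without the 10 most abundant miRNAs. It moved to -1.09 with the upper quartile and -1.13 with TMM on the line alone. In HCT15 the median was 0.12, the value of miR-615-3p. Its sign changed with the scaling, to -0.23 with total reads and -0.12 without the 10 most abundant miRNAs. It was 0.33 with DESeq2 size factors and 0.38 with the upper quartile. Counts over all miRNAs moved more. Those at least 2-fold higher and lower in HT29 spheres were 28 and 44, against 11 and 73 with total reads, 37 and 33 with the upper quartile, 37 and 36 with TMM on the line alone, 138 and 138 with no minimum level, 44 and 65 at a minimum of 10 CPM and 17 and 54 without the 10 most abundant. In HCT15 they were 8 and 4, against 5 and 20 with total reads, 15 and 1 with the upper quartile, 5 and 10 without the 10 most abundant, 30 and 19 at 10 CPM, 61 and 276 with no minimum, and 2 lower with DESeq2 size factors. Across lines, 7 miRNAs were called without a filter, 5 by DESeq2 and 3 by limma-voom, in place of 0; 0 members were called in any alternative fit. The change across lines turned to -0.13 for miR-10a-5p and -0.15 for miR-10b-5p with total reads, and for miR-10a-3p to 0.080 with DESeq2 size factors, 0.21 with the upper quartile and 0.056 with DESeq2 on reads. The members' share of reads in HT29 spheres, HT29 parental cells, HCT15 spheres and HCT15 parental cells was 3.04%, 4.95%, 20.99% and 16.6% over the names common to all files, and 6.51%, 8.48%, 38.0% and 31.2% without the 10 most abundant other miRNAs. The cause of these moves was not tested. Reading 1 HCT15 read by mature length was chosen after seeing the data. The labels number no replicates; the block on cell line paired the cultures of each line, and without it limma called 0. Depth limits miR-10b-3p, miR-196b-3p and both miR-615 arms in HCT15.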

Other observations

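Other mature miRNAs were looked at for the paralog shares seen in the miR-196 pair. Besides that pair, 10 pairs of the RefSeq table differ at 1 base and had at least 100 reads in every library, some sharing a miRNA. In 4 of the 10, the first member's share was within 5 percentage points of its share of hairpins in all 4 libraries. let-7a-5p and let-7f-5p had a largest gap of 0.505 points, miR-19a-3p and miR-19b-3p 0.625, miR-27a-3p and miR-27b-3p 2.25, and miR-103a-3p and miR-107 2.58. In the others the largest gap was 9.71 to 33.2 points, with miR-30a-5p and miR-30e-5p the farthest. The pairs were chosen by sequence after the miR-196 shares had been seen.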
